A study of Mus musculus with 6 samples.

Results

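The dual-specificity MAP kinase phosphatases are the 10 genes Dusp1, Dusp2, Dusp4, Dusp5, Dusp6, Dusp7, Dusp8, Dusp9, Dusp10 and Dusp16, picked by symbol from the 24391 genes of the deposited count table, which held all of them. Their transcripts were measured by poly(A) RNA sequencing in Neuro2a, an established mouse neuroblastoma cell line. The data comprised 3 control libraries, from cells given vehicle, and 3 libraries from cells given 5 mM D-serine. In both groups the growth medium had been exchanged for one labelled D-MEM(-SG), with fetal bovine serum, and RNA was taken 18 h later, per the labels. The labels do not say whether the libraries of a group came from separate cultures, so the p-values measure the spread between these libraries, which may be technical.

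MAP kinases (ERK, JNK and p38) are switched on by phosphorylation of a threonine and a tyrosine in their activation loop, and the phosphatases of this family remove both phosphates. Each carries a catalytic domain and a docking domain that binds the kinase. Many of the genes are themselves transcribed in response to MAP kinase activity, so that they act as negative feedback. By textbook grouping, Dusp1, Dusp2, Dusp4 and Dusp5 encode inducible nuclear enzymes, Dusp6, Dusp7 and Dusp9 encode cytoplasmic enzymes selective for ERK, and Dusp8, Dusp10 and Dusp16 encode enzymes that prefer JNK and p38.

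Promoters of 8 of the 10 genes were found by symbol in a RefSeq table of the mouse assembly GRCm38.p6. Those of Dusp4 and Dusp9 were not found and were not searched. The motifs sought were those of factors that act downstream of MAP kinases or cAMP. In the 8 promoters, the 250 bases before the start that the table uses were searched on both strands. For Dusp7, Dusp8 and Dusp16 that start lies inside the span RefSeq gives the gene, so their windows precede the start of a shorter transcript. The sequences of Dusp1 and Dusp5 are shown because they hold the core of the cAMP response element, TGACGT, and because the fitted changes of their transcripts differed in sign. Capitals mark that core (ACGTCA where it lies on the other strand) and, in Dusp5, also the CArG box bound by serum response factor. Dusp1 (chr17:26508473-26508722, minus strand) and Dusp5 (chr19:53528895-53529144, plus strand) are each printed 5′ to 3′ along the gene.
Dusp1: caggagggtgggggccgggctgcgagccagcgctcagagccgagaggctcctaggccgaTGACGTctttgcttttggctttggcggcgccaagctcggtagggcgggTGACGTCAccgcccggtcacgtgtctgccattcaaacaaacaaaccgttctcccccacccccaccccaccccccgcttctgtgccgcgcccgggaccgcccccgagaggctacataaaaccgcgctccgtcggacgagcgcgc
Dusp5: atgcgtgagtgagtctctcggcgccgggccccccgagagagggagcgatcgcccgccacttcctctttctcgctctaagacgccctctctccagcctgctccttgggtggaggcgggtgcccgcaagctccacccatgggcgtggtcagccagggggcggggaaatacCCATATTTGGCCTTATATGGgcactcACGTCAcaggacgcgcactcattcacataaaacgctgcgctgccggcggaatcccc

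The full palindrome TGACGTCA, which contains the core on both strands, lay in the Dusp1 and Dusp8 windows and in 1.55% of 32817 promoter windows of that length. In Dusp1 a core lay at bases -191 to -186 and the palindrome lay at bases -143 to -136. The core TGACGT lay in the Dusp1, Dusp5 and Dusp8 windows and in 6.46% of all windows. The CArG box was found in 1.47% of all windows and, among the 8 phosphatase windows, in that of Dusp5 alone. There, matches at bases -82 to -73 and -72 to -63 abut and a core follows at bases -56 to -51. The E-box CACGTG lay in the Dusp1 and Dusp2 windows and in 6.02% of all windows. The motif TGANTCA of AP-1, present in 6.75% of all windows, was in none of the 8 windows. The GC box GGGCGG lay in 6 of the 8 windows and in 32.7% of all.

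Total counts lay between 32518483 and 37751439 in control and between 36486418 and 40024265 with D-serine, and the 10 phosphatases together took 0.138% to 0.139% of the counts in control libraries and 0.148% to 0.153% with D-serine. D-serine replicate 1 stood apart from its fellows, with a chi-square statistic per degree of freedom of 17.7 and 13.9 against them, where the other pairs of one group gave 3.88 to 6.54, and long transcripts were low in it (slope on log2 length of -0.0685, against -0.0047 to 0.0344 in the other 5 libraries). Neuroblast markers were present in part. Hand2, a transcription factor of sympathetic neuroblasts, lay at 239 to 261 CPM (counts scaled to a common library size) over all libraries. The catecholamine enzymes Th and Dbh lay at 1.16 to 2.96 CPM and 1.24 to 1.94 CPM. Of 15 such markers, 13 were tested. The other 2, Nefl and Nefm, had 0 to 2 and 0 to 6 counts per library. By fitted value 8 of the 13 were higher with D-serine and 5 were lower. Tubb3 and Mycn were called, both higher, which is 15.4% of the 13 against 9.74% of all tested genes. The list summed to 1800 to 1899 CPM in control and 1937 to 2076 CPM with D-serine. Tubb3 alone had means of 490 and 583 CPM. The part of this list in the results on the phosphatases was not tested. Markers of fibroblasts summed to 5.70 to 6.09 CPM in control and 4.61 to 6.90 CPM with D-serine (3 of 7 at 0 in every library: Col3a1, Lum and Thy1). Those of macrophages summed to 1.05 to 2.20 and 1.02 to 1.55 CPM (1 of 6 at 0, Adgre1), and those of glia to 15.7 to 16.9 and 15.6 to 16.6 CPM (1 of 7 at 0, Aqp4).

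The family was dominated by Dusp4 and Dusp6. Levels between genes are compared here in CPM per kilobase of counted exon (CPM per kb). In control libraries Dusp4 was at 319 ± 2.43 CPM per kb and Dusp6 at 125 ± 2.47 CPM per kb (SD, n = 3 each). These were 58.7% to 59.6% and 22.7% to 23.5% of the family's summed level per kb. By CPM, Dusp4 stood above 99.2% of the 13366 tested genes in control and Dusp6 above 96.5%. The next 7 genes lay within a narrow band, in the order Dusp5 (22.0 ± 0.43 CPM per kb), Dusp8 (17.4 ± 0.41), Dusp1 (14.2 ± 0.13), Dusp16 (13.0 ± 0.34), Dusp10 (10.6 ± 0.38), Dusp2 (9.77 ± 0.34) and Dusp7 (8.91 ± 0.38). Dusp9 was last at 0.034 ± 0.0098 CPM per kb. No control library of a gene overlapped those of the next gene in that order, although the lowest Dusp2 library (9.38 CPM per kb) and the highest Dusp7 library (9.34) were close together.

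**Figure D1:**
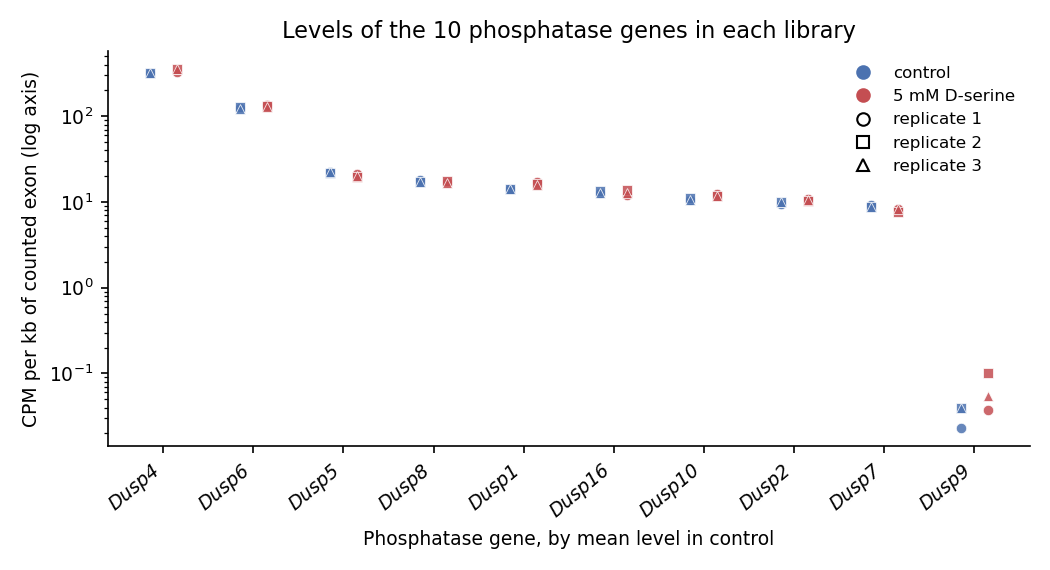
Level of each phosphatase gene in CPM per kb of counted exon, on a log axis, with 1 point per library (blue, control; red, 5 mM D-serine; the symbol gives the replicate). Dusp4 and Dusp6 lie above the other genes in all 6 libraries and Dusp9 lies at or below 0.101 CPM per kb.

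The place of Dusp5 in this order depends on the gene model. Its counted exons summed to 1155 bases, which equals the coding length in GENCODE release M21 (1155 bases) and is 46.7% of the longest GENCODE transcript (2473 bases). Reads from its untranslated regions would therefore not have been counted. For the other 9 genes the counted length was 88.6% to 100.3% of the longest GENCODE transcript, with Dusp4 (2427 of 2740 bases) at the low end. No exon of the 10 genes overlapped an exon of another gene in the table on either strand.

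D-serine and control cultures were compared gene by gene, with edgeR's quasi-likelihood test and Benjamini-Hochberg adjustment over all 13366 genes tested, at a threshold of 0.05. Dusp1 was the 1 phosphatase of 9 tested that passed, and it rose by 15.8%. All differences in the family were small: the largest fitted change was 0.21 on the log2 scale, and the median absolute change of the 9 genes was 0.12, the same as the 0.12 of all tested genes. Of all tested genes, 9.74% passed the threshold, 4.84% higher and 4.9% lower, so 1 call among 9 genes is near the background. By fitted value 5 phosphatases were higher with D-serine (Dusp1, Dusp2, Dusp4, Dusp6 and Dusp10) and 4 were lower (Dusp5, Dusp7, Dusp8 and Dusp16), with a median of 0.086 against 0.0053 over all tested genes. For 7 of the 9 genes every D-serine library lay on the same side of every control library, above in 5 and below in 2 (Dusp5 and Dusp7). Such separation was found in 32.9% of all tested genes (16.2% above, 16.6% below). Under upper quartile scaling Dusp5 overlapped, leaving 6 genes, and the calls over all genes then were 914 higher and 412 lower, in place of 647 and 655. In bulk RNA, a change in how many cells carry a transcript and a change in its amount per cell cannot be told apart.

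**Figure D2:**
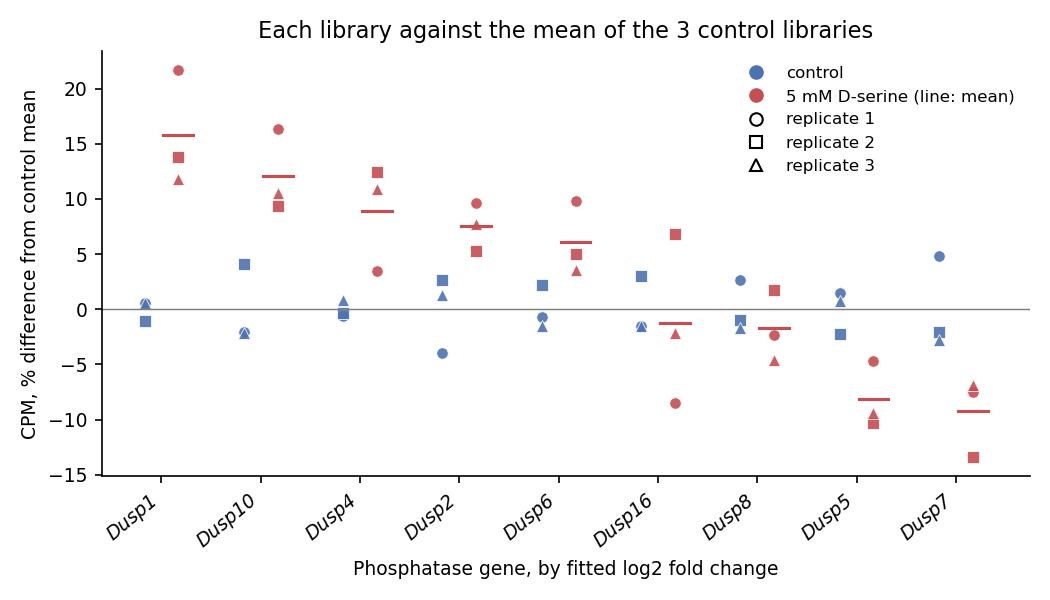
CPM of each library as percent difference from the mean of the 3 control libraries, for the 9 tested phosphatase genes in order of fitted change (blue, control; red, 5 mM D-serine; red line, D-serine mean; the symbol gives the replicate). The groups are separate for 7 genes and overlap for Dusp8 and Dusp16, and D-serine replicate 1 is the highest library for Dusp1, Dusp10, Dusp2 and Dusp6 but the lowest D-serine library for Dusp4.

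Among the inducible nuclear enzymes, Dusp1 (chromosome 17, 26642536 to 26645417 as deposited, minus strand, 4 exons) dephosphorylates p38, JNK and ERK and is an immediate early gene. Its level was 27.7, 27.3 and 27.7 CPM in control replicates 1 to 3 and 33.5, 31.4 and 30.8 CPM in D-serine replicates 1 to 3. The control libraries lay closer together than the error expected from counting alone (coefficient of variation 0.933%, counting error 3.005%), and the D-serine libraries lay further apart than it (4.51%). Every D-serine library lay above the controls. The log2 fold change was 0.21 (SE 0.061, 95% interval 0.080 to 0.34, edgeR adjusted p = 0.0449), or 1.16-fold. It passed in 8 of 16 alternative fits. In none of the 6 fits that left out 1 library did it pass, with adjusted p-values between 0.0544 and 0.148 and log2 fold changes between 0.17 and 0.24. Without D-serine replicate 1, the highest library, the change was 0.17 (adjusted p = 0.0875).

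Dusp4 (chromosome 8, 35870664 to 35882948, plus strand, 4 exons) encodes a nuclear phosphatase of ERK and JNK. It measured 769, 771 and 780 CPM in control and 799.8, 869.6 and 857 CPM with D-serine. The controls were tightly grouped, 2 of the D-serine libraries lay well above them, and D-serine replicate 1 lay only slightly above. The log2 fold change was 0.12 (SE 0.041, 95% interval 0.035 to 0.21, edgeR adjusted p = 0.0739). This result turned on D-serine replicate 1. Without it the change was 0.16 and the adjusted p was 0.00194, and Dusp4, not Dusp1, was then the 1 phosphatase past the threshold. Without any other 1 library the adjusted p lay between 0.136 and 0.217. Dusp4 also passed with upper quartile scaling (0.15, adjusted p = 0.0337), with library totals (0.15, adjusted p = 0.033), with no filter on low counts (adjusted p = 0.0453) and with each library's length trend removed (0.11, adjusted p = 0.0375).

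Dusp2 (chromosome 2, 127161895 to 127164113, plus strand, 4 exons), another nuclear enzyme first known from lymphocytes, was counted 490 to 686 times per library. Its level was 15.2, 16.2 and 16.0 CPM in control and 17.3, 16.6 and 17.03 CPM with D-serine. The groups were separate, but the nearest libraries, control replicate 2 and D-serine replicate 2, were close. The log2 fold change was 0.10 (SE 0.072, 95% interval -0.052 to 0.26, edgeR adjusted p = 0.37), and the groups overlapped once each library's length trend was removed (0.053, adjusted p = 0.67).

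Dusp5 (chromosome 19, 53603808 to 53615812, plus strand, 4 exons) encodes a nuclear enzyme specific for ERK. It measured 25.8, 24.9 and 25.6 CPM in control and 24.2, 22.8 and 23.1 CPM with D-serine. All D-serine libraries lay below all controls, though not under upper quartile scaling. Its log2 fold change was -0.12 (SE 0.063, 95% interval -0.26 to 0.014, edgeR adjusted p = 0.224). With each library's length trend removed, the change was -0.20 and passed the threshold (adjusted p = 0.037). That correction used the deposited coding length. With the length of the GENCODE transcript in its place, an alternative added after the data were seen, the change was -0.13 (adjusted p = 0.155).

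Dusp1 was higher relative to Dusp5 with D-serine, a comparison that needs no scaling of the libraries and does not give the direction of either gene. The ratio of Dusp1 to Dusp5 counts within a library was 1.07, 1.095 and 1.08 in control and 1.38, 1.37 and 1.34 with D-serine, means of 1.08 ± 0.011 and 1.36 ± 0.025 (SD, n = 3 each); the exact permutation p, two-sided, was 0.1, which is the minimum for 3 against 3. The 2 groups of ratios were well separated compared with their spread. For both genes the spread between control libraries was below the error expected from counting alone. The ratio was chosen after the values were seen, as were the other 4 ratios given a permutation p. Adjustment over these 5 gives no value below 0.1. Overlap was also checked for all 36 pairs of the 9 tested phosphatases, and in 22 pairs the ratios did not overlap between the groups. These pairs share genes, and the share of such pairs among all tested genes was not computed, so the count gives no trait of the family. The Dusp4 to Dusp5 ratio was 29.8 to 31.0 in control and 32.99 to 38.1 with D-serine.

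Of the cytoplasmic enzymes, Dusp6 (chromosome 10, 98725865 to 98730123, plus strand, 3 exons) is the best known ERK-selective member and a common readout of ERK activity. Its level was 346, 356 and 343 CPM in control and 382, 366 and 361 CPM with D-serine. The groups did not overlap, though D-serine replicate 3 was close to control replicate 2. The log2 fold change was 0.086 (SE 0.041, 95% interval -0.0031 to 0.17, edgeR adjusted p = 0.191), and Dusp6 passed the threshold in none of 16 alternative fits (adjusted p from 0.0937 to 0.381). The Dusp4 to Dusp6 ratio, 2.17 to 2.27 in control and 2.09 to 2.38 with D-serine, was not separated by group (p = 0.6 by an exact two-sided permutation).

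Dusp7 (chromosome 9, 106270963 to 106278054, plus strand, 3 exons), the second cytoplasmic ERK-selective enzyme, measured 30.0, 28.0 and 27.8 CPM in control and 26.5, 24.8 and 26.6 CPM with D-serine. All D-serine libraries were below the controls. The log2 fold change was -0.14 (SE 0.064, 95% interval -0.28 to -0.00052, edgeR adjusted p = 0.175), the largest fitted decrease in the family, and no alternative fit took it past the threshold. The Dusp6 to Dusp7 count ratio was 11.5, 12.7 and 12.3 in control and 14.5, 14.8 and 13.5 with D-serine, without overlap (p = 0.1 by an exact two-sided permutation). Dusp9 (chromosome X, 70884780 to 70888853, plus strand, 4 exons), the third of this class, had 2, 4 and 4 counts in control and 4, 10 and 6 with D-serine. The filter on low counts removed it, and it was not called in the edgeR fit without that filter.

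The class that prefers JNK and p38 held the gene with the second largest fitted increase. Dusp10 (chromosome 1, 185858340 to 185899515, plus strand, 4 exons) measured 28.3, 30.0 and 28.2 CPM in control and 33.6, 31.6 and 31.9 CPM with D-serine. Its D-serine libraries all lay above the controls. The log2 fold change was 0.16 (SE 0.060, 95% interval 0.034 to 0.29, edgeR adjusted p = 0.0982), and over the 16 alternatives the change stayed between 0.14 and 0.20 with adjusted p-values from 0.061 to 0.248.

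Dusp8 (chromosome 7, 149265392 to 149281189, minus strand, 7 exons), an enzyme prominent in brain, measured 85.9, 82.8 and 82.2 CPM in control and 81.7, 85.1 and 79.8 CPM with D-serine. Dusp16 (chromosome 6, 134665486 to 134742646, minus strand, 8 distinct exons), which acts mainly on JNK, measured 65.6, 68.6 and 65.6 CPM in control and 60.96, 71.1 and 65.2 CPM with D-serine. Both genes overlapped between the groups. The log2 fold changes were -0.025 (95% interval -0.13 to 0.077, edgeR adjusted p = 0.771) for Dusp8 and -0.019 (95% interval -0.15 to 0.11, adjusted p = 0.872) for Dusp16, and the sign of each turned under upper quartile scaling, library totals and removal of the length trend. D-serine replicate 1 was the lowest Dusp16 library.

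The error expected from counting alone was 0.577% of the value for Dusp4 and 0.865% for Dusp6, 3.005% for Dusp1, 3.15% for Dusp7, 2.96% for Dusp10, and 4.05% for Dusp2. Over the D-serine libraries the coefficient of variation exceeded this error for all tested phosphatases but Dusp2 and Dusp5. It was 4.51% for Dusp1, 4.43% for Dusp4, and 7.76% for Dusp16, whose counting error was 2.02%. The half-width of the 95% interval of the log2 fold change ran from 0.089 to 0.16 over the 9 tested genes. The fitted changes ran from -0.14 (Dusp7) to 0.21 (Dusp1), and those of Dusp8 (-0.025) and Dusp16 (-0.019) were far smaller in size than that half-width.

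**Figure D3:**
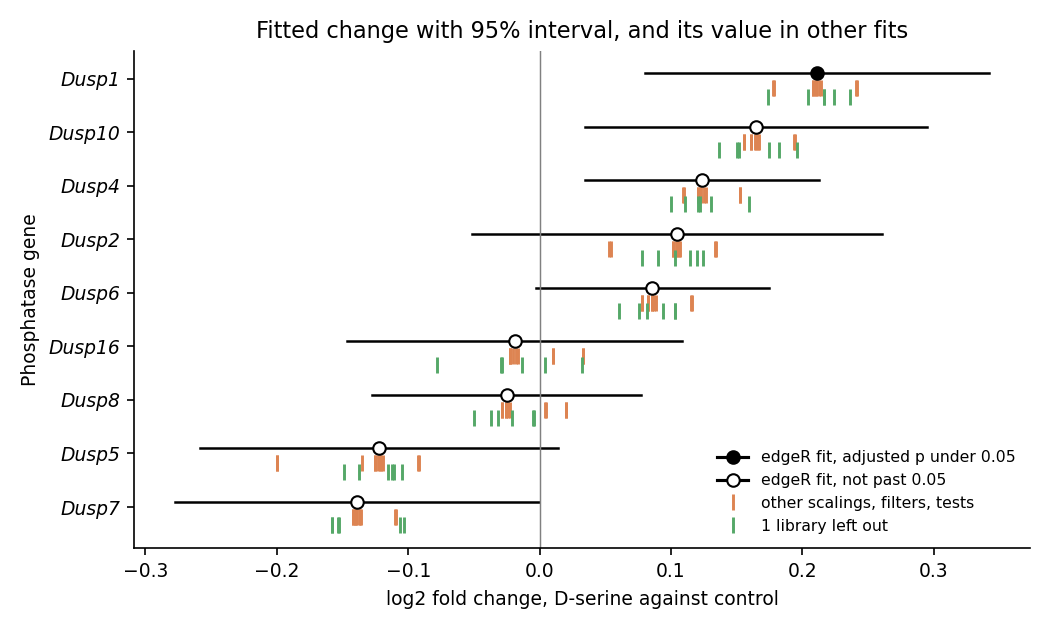
Log2 fold change of D-serine against control for the 9 tested phosphatase genes: black circles with lines are the edgeR estimate and its 95% interval (filled where the adjusted p was under 0.05), orange ticks are the estimates under other scalings, filters, tests, block or length correction, and green ticks those with 1 library left out. The sign held in all of these fits for 7 genes and turned for Dusp8 and Dusp16, and the Dusp5 tick at -0.20 is the fit with the length trend removed.

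The library profile most like that of Dusp1 was sought among 9842 genes with at least 5 CPM. By Pearson's r of log2 CPM over the 6 libraries, given as a description, these were Rad51c (r = 0.998), a recombination gene, Tra2a (0.997), a splicing regulator, and Ewsr1 (0.997), an RNA-binding protein gene. Like Dusp1, each was highest in D-serine replicate 1, as follows from their choice by likeness over the same libraries.

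The phosphatases were then set beside the other genes of the MAP kinase pathway, taken from lists written from general knowledge. The MAP kinases themselves are the substrates of the family. Of all 13366 tested genes, 28.2% had an unadjusted p under 0.05 in edgeR. Of 12 tested MAP kinase genes none passed in edgeR, DESeq2 or limma-voom (1 at an unadjusted p under 0.05). The smallest p belonged to Mapk10, a neuronal JNK, at 32.5, 30.5 and 31.8 CPM in control and 32.9, 36.7 and 34.5 CPM with D-serine (log2 fold change 0.13, edgeR adjusted p = 0.176). With the length trend removed 2 MAP kinase genes passed, as did 15.3% of all tested genes, and Mapk10 was at 0.23 (adjusted p = 0.0101).

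By fitted value, 10 of 13 tested growth factor receptors and 10 of 14 adaptor and Ras genes were lower with D-serine, with medians of -0.12 and -0.086. With each library's length trend removed these medians were -0.049 and -0.024. Of the 13 receptors, 4 were called, all lower: Fgfr3 (37.5 ± 1.59 CPM in control and 31.0 ± 1.02 with D-serine, mean ± SD of 3; log2 fold change -0.28, edgeR adjusted p = 0.0166), the insulin-like growth factor receptor gene Igf1r (-0.34, adjusted p = 0.0182), Fgfr1 (-0.19, adjusted p = 0.0223) and Pdgfrb (-0.37, adjusted p = 0.037). The median over all tested genes was 0.0053, and 9.74% of them were called, 4.9% lower. Igf1r, with 11978 counted bases the longest of the 4, measured 80.8, 99.4 and 95.7 CPM in D-serine replicates 1 to 3. Without D-serine replicate 1, 4 receptors were again called lower while the median was -0.015. With the length trend removed 6 were called, 4 lower and 2 higher, and the share of all tested genes called was 15.3%. Counts of Fgfr1 are uncertain, because 125 of its exonic bases also belong to Gm16159 on the other strand.

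Of 14 adaptor and Ras genes, 4 were called (28.6%, against 9.74% of all tested genes). The Ras exchange factor genes Sos2 (log2 fold change -0.20, edgeR adjusted p = 0.021) and Sos1 (-0.22, adjusted p = 0.0261) and the adaptor gene Grb2 (-0.15, adjusted p = 0.0388) fell, and Nras rose (0.17, adjusted p = 0.0236). Sos1 did not pass with the length trend removed (-0.091, adjusted p = 0.126), and Grb2 did not pass under upper quartile scaling (-0.13, adjusted p = 0.0836) or library totals (adjusted p = 0.0768).

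In the kinase tiers below Ras, no gene was called by edgeR as fitted above or by limma-voom, but some other edgeR fits made calls. The 18 MAP kinase kinase kinases were lower in 16 cases by fitted value, with a median of -0.13, or -0.078 with the length trend removed (5 at an unadjusted p under 0.05, 1 called by DESeq2), and Map3k3 had the smallest p (-0.18, edgeR adjusted p = 0.0569). Map3k3 passed in 5 of 16 alternative fits, among them the one with the length trend removed (-0.19, adjusted p = 0.0115). Of 6 MAP kinase kinases the smallest p was that of Map2k4, an activator of JNK (-0.091, adjusted p = 0.205), with none under an unadjusted 0.05 and none called by DESeq2. Of 15 scaffolds and substrate kinases, 3 had an unadjusted p under 0.05 and 2 were called by DESeq2, and Rps6ka1, an ERK-activated kinase, had the smallest p (-0.17, edgeR adjusted p = 0.0574). It passed in 6 of 16 alternative fits, with an adjusted p of 0.0181 with the length trend removed.

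Of the other negative regulators, the Sprouty and Spred genes, which restrain the pathway at the level of Ras and Raf, were grouped with Errfi1, an inhibitor of the EGF receptor. They had a median of -0.049 over 7 tested genes, 5 of them lower by fitted value (none called by edgeR or limma-voom, 1 by DESeq2, 2 at an unadjusted p under 0.05). Spred2 had the smallest p (112 ± 3.87 to 97.3 ± 11.6 CPM, -0.21, edgeR adjusted p = 0.0807) and was lowest in D-serine replicate 1. It passed in 5 of 16 alternative fits (adjusted p = 0.0255 with the length trend removed). Dual-specificity phosphatases outside the family had a median of 0.018 over 16 tested genes (none called by edgeR or limma-voom, 2 by DESeq2, 2 at an unadjusted p under 0.05). Ssh1, a cofilin phosphatase, had the smallest p there (-0.32, edgeR adjusted p = 0.0522), and passed in 6 of 16 alternative fits. Among 7 tested genes of other phosphatase families that act on MAP kinases, none had an unadjusted p under 0.05 and none was called by any of the 3 tools. Ptprr, a tyrosine phosphatase of ERK, had the smallest p (-0.17, edgeR adjusted p = 0.215).

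Genes listed as transcribed in response to ERK moved in both directions. Of 22 tested, 6 were called, 3 higher and 3 lower, with a median of 0.00032. That is 27.3% of the list, against 9.74% of all tested genes. The list includes Srf, Elk1, Elk3 and Elk4, and whether each listed gene responds to ERK in these cells was not tested. Myc rose (341 ± 2.18 CPM in control and 404 ± 13.4 with D-serine, mean ± SD of 3; log2 fold change 0.25, edgeR adjusted p = 0.00775), as did Ccnd1, the cyclin D gene (0.14, adjusted p = 0.0309), and Elk3, an ETS factor gene (0.21, adjusted p = 0.0362). Egr1, like Dusp1 an immediate early gene, fell (262 ± 1.83 to 223 ± 12.3 CPM, -0.24, adjusted p = 0.0127). The other 2 that fell, Fosb and Elk1, are named here after their values were seen. With the length trend removed 8 were called, 4 in each direction, and the share of all tested genes called was 15.3%. Under upper quartile scaling and with library totals 3 were called higher and 1 lower, where 9.92% and 10.1% of all tested genes were called.

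Of 13 tested genes listed as responsive to JNK and p38, 3 were called. The list includes Atf2, Mef2a and Mef2d, and whether each listed gene responds to JNK or p38 in these cells was not tested. Jun, whose product is the namesake substrate of JNK, rose (288 ± 1.57 CPM in control and 345 ± 8.999 with D-serine, mean ± SD of 3; log2 fold change 0.26, edgeR adjusted p = 0.00552), Gadd45g rose (0.29, adjusted p = 0.0157) and Mef2d fell (-0.23, adjusted p = 0.0428). The median was 0.11, with 9 of 13 higher by fitted value. Under upper quartile scaling and with library totals 3 were called higher and 0 lower, and Mef2d did not pass (adjusted p = 0.0589 and 0.0627). Omission of single libraries changed these pathway counts in edgeR. Without control replicate 1, control replicate 2 and D-serine replicate 3 in turn, the receptors called were 0, 0 and 1, the adaptor and Ras genes 0, 0 and 0, the ERK-responsive genes 1, 0 and 1, and the JNK- and p38-responsive genes 1, 0 and 1. Without control replicate 3 the counts were 1, 2, 3 and 2 in that order of lists, and without D-serine replicate 1 they were 4, 6, 5 and 3. Without D-serine replicate 2 they were 5, 5, 7 and 4. The share of all tested genes called in these fits, in the order given, was 0.921%, 0.501%, 2.15%, 3.34%, 12.5% and 11.6%. In the fit of all libraries it was 9.74%. At an unadjusted p under 0.05 the fit of all libraries gave 6, 7, 11 and 6, where 28.2% of all tested genes had such a p.

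**Figure D4:**
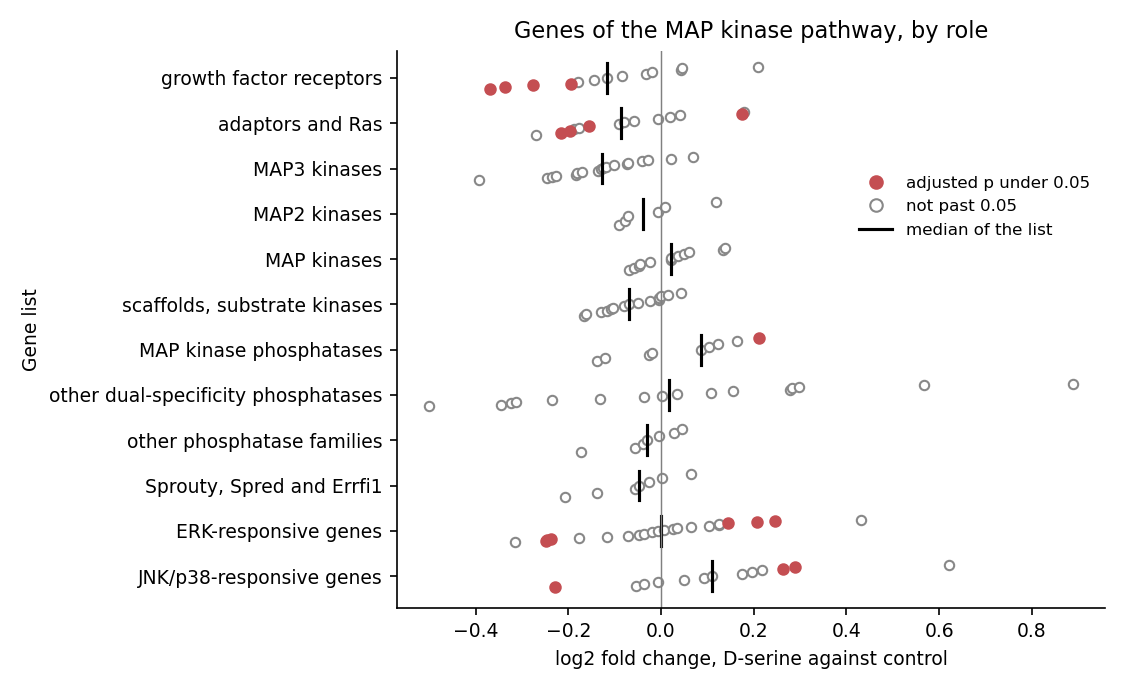
Log2 fold change of D-serine against control for the tested genes of 12 lists, 1 row per list (red, adjusted p under 0.05; open, not past it; black bar, median of the list). The phosphatase median is 0.086, the receptor, adaptor and MAP3 kinase medians lie between -0.13 and -0.086, and the ERK-responsive list has called genes on both sides of 0.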

How the data were processed

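Per the file headers, the authors deposited a table of raw featureCounts counts per gene with the summed exon length in bases. The submitters' processing notes name bcl2fastq, Trim Galore, HISAT2, featureCounts, Subread and DESeq2 and the builds GRCm38 and mm10. The strand setting is not given in the sources used here. Gene coordinates are printed as deposited, 1-based. None of the 10 phosphatases, and 314 of 23175 matched genes, had the start that RefSeq gives on GRCm38.p6, so the build of the table is uncertain. Promoter coordinates are GRCm38.p6.

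Counts were tested with edgeR 4.0.16 in R 4.3.3 (filterByExpr by group, TMM scaling, quasi-likelihood F test, no covariate, 6 libraries) over 13366 genes. CPM are the deposited counts divided by TMM-adjusted totals. The standard error is the log2 fold change divided by the square root of F. Alternatives were DESeq2 1.42.0, limma-voom (limma 3.58.1), other scalings and filters, a replicate block, removal of each library's trend on log2 exon length (natural spline, 5 degrees of freedom) and omission of each library. The fits were tested on simulated data. Correlations used log2(CPM + 0.5).

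The phosphatases and gene lists were chosen with earlier results of these data known. Named were all 10 phosphatases, the gene with the smallest p of each pathway list, its genes past the threshold up to 4 in order of p, and the 3 genes most like the phosphatase of smallest p. Tubb3, Mycn and the cell markers named with values were chosen after their values were seen.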

Additional observations from a re-analysis of the deposited data

How the results depend on the processing

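The number of genes past the threshold, 1302 in the reported fit (647 higher, 655 lower), was 298 with the replicate block (178 higher, 120 lower) and 2043 with the length trend removed (1023 higher, 1020 lower). The lower genes numbered 412 under upper quartile scaling, 412 with library totals and 987 with no filter on low counts. Omission of 1 library gave from 68 to 1699 genes, from 47 to 783 higher and from 21 to 916 lower, with the fewest in each case without control replicate 2. Phosphatases past the threshold, 1 in the reported fit, were 2 under upper quartile scaling, 2 with library totals and 2 with no filter (Dusp1 and Dusp4 each time), 3 with the length trend removed (Dusp1, Dusp4 and Dusp5), 1 with that removal and the block (Dusp4) and 0 with the replicate block alone in edgeR (3 at an unadjusted p under 0.05, Dusp1 at an adjusted p of 0.0948). Omission of 1 library gave from 0 to 1: the 1 was Dusp4, without D-serine replicate 1, and the 5 fits with 0 had 2 or 3 at an unadjusted p under 0.05. The cause was not tested. With the replicate block edgeR called 1 receptor, 0 adaptor and Ras genes (against 4 and 4), 2 ERK-responsive genes (against 6) and 2 JNK- and p38-responsive genes (against 3). Same-numbered libraries correlated at -0.128, 0.0123 and -0.0191 in their deviations from the group means, and libraries of different number at -0.141 to 0.142. With 3 libraries per group the deviations are not independent. They cannot show whether same-numbered libraries were prepared together.

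Dusp8 turned to 0.0045 under upper quartile scaling, 0.0040 with library totals, 0.020 with the length trend removed and 0.020 with that and the replicate block. Dusp16 turned to 0.010, 0.010, 0.033 and 0.033 in the same fits, to 0.0038 without control replicate 2 and to 0.032 without D-serine replicate 1, and was lowest, at -0.078, without D-serine replicate 2. None of these values was past the threshold. The sign of the other 7 phosphatases and of the 25 other named genes held in every alternative, although 71 of 400 values of the latter lost the call and 31 gained it. Upper quartile scaling moved the median of all genes by 0.030. The counting error of Dusp2 (4.05%) and the counts of Dusp9 (2 to 10) limit what this depth shows for them.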
